A study of Mus musculus with 12 samples.

Results

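A set of 8 genes that the Wnt pathway is known to switch on in the intestine, Myc, Ccnd1, Cd44, Lef1, Sp5, Tnfrsf19, Prox1 and Sox9, was followed in biopsies of mouse colon tumors. They were taken by name from the deposited array table, keeping probe sets that carry a single gene symbol, and all 8 were found among 19938 genes, each with 1 probe set. The biopsies came by colonoscopy from 6 F1 mice of SWR mothers and C57BL/6 fathers, each carrying Apc Min/+ and each given 2 courses of 4% dextran sodium sulfate, which injures the colon lining, in its water around weaning. An early and a late biopsy of a single tumor per mouse were measured, so that 12 arrays form 6 early and late pairs. Mice 1755, 1803 and 1805 had adenoma, a benign tumor, at the late biopsy, and mice 2201, 3407 and 3413 had intramucosal carcinoma. Early biopsies have no reading of their own and are grouped here by what their tumor became. At the early biopsy the adenoma mice were 89.0 ± 4.36 days old (SD, n = 3) and the carcinoma mice 99.7 ± 15.5 (SD, n = 3). At the late biopsy the adenoma mice were 333 ± 86.4 days old (SD, n = 3) and the carcinoma mice 227 ± 35.2 (SD, n = 3), so the pathologies also differ in age and these cannot be fully told apart. All groups share the Apc mutation and the dextran sodium sulfate, and no normal colon or untreated tumor was among the samples used here.

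In the Wnt pathway a ligand stops a complex of Apc, Axin and kinases from destroying beta-catenin, which then enters the nucleus and activates genes together with the TCF/LEF transcription factors. In the intestine this signal keeps the stem cells at the crypt base dividing, and loss of Apc turns it on without a ligand, the usual first step of a colon adenoma. The 8 genes are among the outputs of this signal. Lef1 is itself one of the TCF/LEF factors, Sp5 is a zinc finger factor that damps part of the program, Tnfrsf19 (also called Troy) is a receptor of crypt base stem cells that restrains Wnt signalling, and Cd44 is a surface receptor for the matrix sugar hyaluronan. Prox1 is a homeobox factor linked to tumor growth, Sox9 a factor of crypt progenitors, Myc a driver of growth and ribosome production, and Ccnd1 encodes cyclin D1, which moves cells from G1 into DNA synthesis.

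Values are log2 intensities as deposited, a scale on which a difference of 1 is a 2-fold difference, and each probe set is compared only with itself across arrays. Array medians lay between 7.62 and 7.80 log2, and the median correlation of an array with the others between 0.973 and 0.988. The lowest of these was the late array of mouse 1805, the oldest animal at its late biopsy (395 days), so values of the 8 genes and of the lists over several mice are also given without it where they move by more than 1.5 times. The mean of 7 epithelial markers was 12.13 to 12.96 log2 on the 12 arrays, while markers of fibroblasts, vessels and leukocytes were also present and differed between arrays. In such a mixed biopsy, fewer cells of a type and less RNA per cell cannot be told apart. The replicates of a group are different mice, 3 per pathology, and this number limits the precision of every comparison.

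The first comparison set the late biopsy of each tumor against its own early one. None of the 8 genes passed the test over all 6 tumors (limma with mouse as a block, Benjamini-Hochberg adjustment over all genes, threshold 0.05), and 0% of all genes did. At an unadjusted p under 0.05 there was 1 of the 8, Tnfrsf19, where 14.7% of all genes reached that level. The median difference of the 8 genes was -0.14 log2 (-0.019 without mouse 1805), against -0.02 over all genes, and 3 of the 8 were above 0, against 42.1% of all genes. Of the 8, 2 were lower in 6 of 6 mice (5.18% of all genes) and 0 higher in 6 of 6 (2.59%). Early and late levels overlapped in 8 of 8 genes, while 0.401% of all genes had groups that did not overlap. The pattern within the set was uneven, with Tnfrsf19, Prox1 and Lef1 lower in nearly every late biopsy and by several fold in mouse 1805, and Ccnd1, Cd44 and Sox9 within 0.12 log2 of their early mean.

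**Figure D1:**
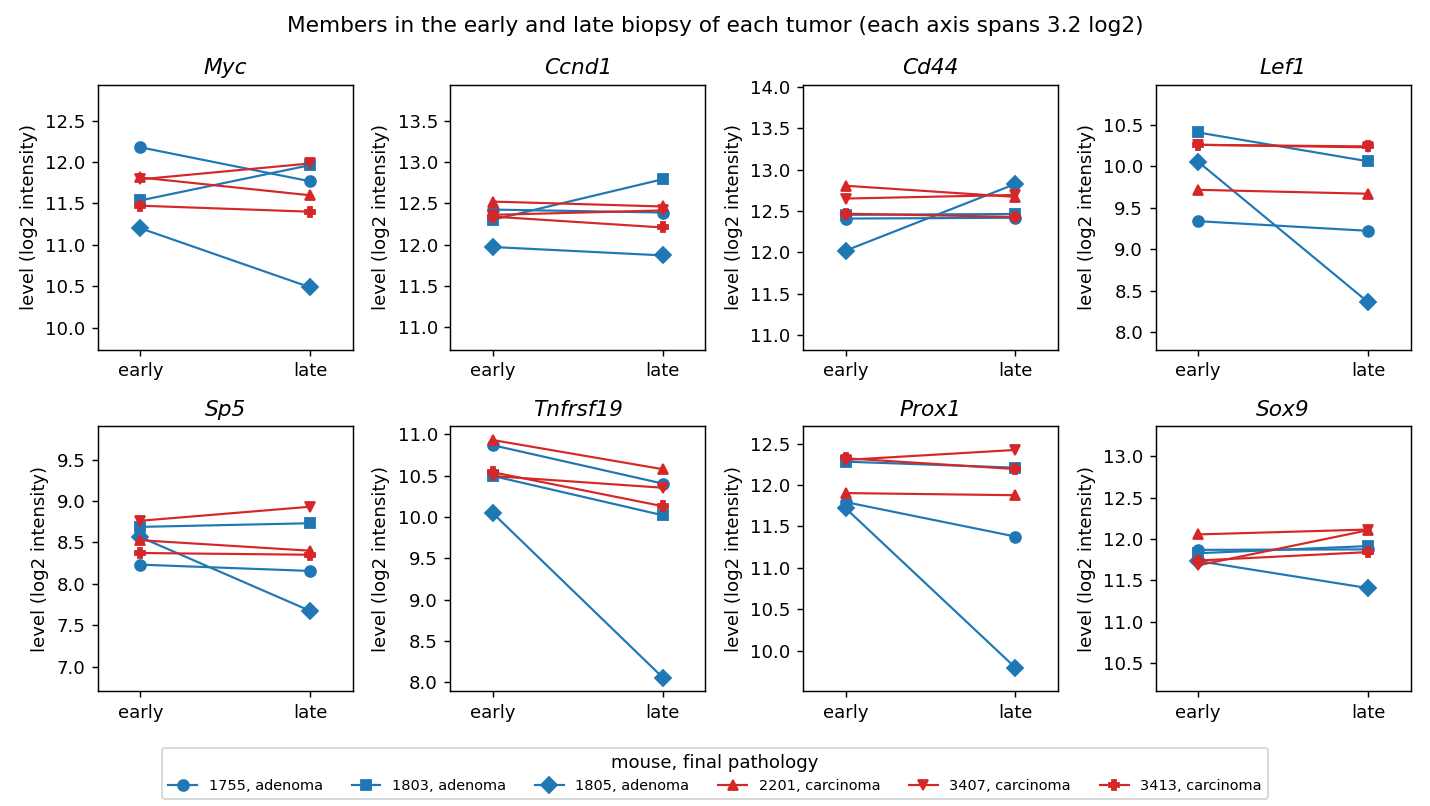
Level of each of the 8 genes (log2 intensity, vertical axis) in the early and late biopsy of each tumor, 1 line per mouse, blue for tumors that ended as adenoma and red for carcinoma; every panel spans the same height. The steep lines to the late biopsy of mouse 1805 in Lef1, Sp5, Tnfrsf19 and Prox1, and the opposite line in Cd44, are the steepest in their panels.

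Among the receptors, Tnfrsf19 showed the most regular difference. Its early level ran from 10.04 (mouse 1805) over a median of 10.52 to 10.93 (mouse 2201), and its late level from 8.06 (mouse 1805) over a median of 10.24 to 10.58 (mouse 2201). The late biopsy was below its own early partner in 6 of 6 mice, although the ranges of the groups overlap. The differences were -0.46, -0.47 and -1.99 log2 in the adenoma mice 1755, 1803 and 1805, and -0.35, -0.14 and -0.41 in the carcinoma mice 2201, 3407 and 3413. The fitted difference was -0.64 log2 (SE 0.226, adjusted p = 0.285), which misses the threshold. Without mouse 1805 it was -0.37 (SE 0.0667, adjusted p = 0.260), smaller in size but with less spread among the other 5 mice. In the 4 pairs whose arrays come from different ranges of the submitters' sample numbers the difference was -0.82 ± 0.780 log2 (SD, n = 4). Without mouse 1805 these pairs were at -0.43 ± 0.0677 (SD, n = 3). In the 2 pairs within a range, those of mice 3407 and 3413, the difference was -0.28 ± 0.190 (SD, n = 2).

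Cd44 was nearly level in 5 mice and higher late in mouse 1805. Its early level ran from 12.02 (mouse 1805) over a median of 12.46 to 12.80 (mouse 2201), and its late level from 12.42 (mouse 1755) over a median of 12.57 to 12.83 (mouse 1805). In mouse 1805 it was the lowest of the early arrays and the highest of the late ones, a difference of 0.81 log2, against -0.14 to 0.04 in the other mice. The fitted difference of 0.12 (SE 0.122, adjusted p = 0.699) became -0.02 without that mouse.

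Of the nuclear partners of the pathway, Lef1 was also lower in 6 of 6 late biopsies, but by little outside mouse 1805. Early levels ran from 9.34 (mouse 1755) over a median of 10.16 to 10.41 (mouse 1803), and late levels from 8.36 (mouse 1805) over a median of 9.87 to 10.24 (mouse 3413). The differences were -0.12, -0.35 and -1.70 log2 in the adenoma mice 1755, 1803 and 1805 and -0.05, -0.03 and -0.02 in the carcinoma mice 2201, 3407 and 3413, so the 3 carcinoma tumors lay within 0.05 log2 of their early level. The median change of all genes was -0.087 in mouse 2201, where 56.8% of genes fell more than Lef1, 0.0097 in mouse 3407 and -0.010 in mouse 3413. The fitted difference was -0.38 log2 (SE 0.222, adjusted p = 0.467), and -0.11 without mouse 1805. Sp5 had early levels from 8.23 (mouse 1755) over a median of 8.55 to 8.76 (mouse 3407) and late levels from 7.67 (mouse 1805) over a median of 8.38 to 8.93 (mouse 3407). It was lower late in 4 of 6 mice, with -0.89 log2 in mouse 1805 and -0.13 to 0.17 in the rest, with a fitted difference of -0.15 (SE 0.132, adjusted p = 0.631), and -0.0021 without mouse 1805.

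TCF/LEF factors bind short DNA motifs near their target genes. The stretch before the start is given for Sp5, Tnfrsf19 and Lef1, which were low in the late biopsy of mouse 1805 and hold a match. The RefSeq table (GRCm38.p6) had 10 windows of 250 bases before a start for 5 of the 8 genes, Cd44, Lef1, Sp5, Tnfrsf19 and Prox1. The core motif, CTTTG followed by AA, AT, TA or TT, was searched on both strands. A match was present in 3 of these 10 windows, and in 14.8% of 32851 windows of the same length in the table. Prox1, also low in the late biopsy of mouse 1805 (-1.93 log2), held no match in its 2 windows. Cd44 held none in its 1 window. Sp5 held 2 matches, as 1.43% of windows did at 2 or more, CTTTGTT on the opposite strand at bases -222 to -216 from the start and CTTTGAT on its own strand at -104 to -98. Tnfrsf19 held CTTTGAT on the opposite strand at -202 to -196 of its second listed start and none before its first, and the Lef1 match (CTTTGTA, opposite strand, -147 to -141) lay before the fourth of its 4 listed starts. A match is a string of letters and does not show binding. In the sequences, written 5′ to 3′ along the strand of the gene, capitals mark the matches. Sp5 lies at chr2:70474673-70474922 on the plus strand, and the Tnfrsf19 windows at chr14:61046856-61047105 and chr14:61037988-61038237 on the minus strand, and the Lef1 window at chr3:131156044-131156293 on the plus strand.
Sp5: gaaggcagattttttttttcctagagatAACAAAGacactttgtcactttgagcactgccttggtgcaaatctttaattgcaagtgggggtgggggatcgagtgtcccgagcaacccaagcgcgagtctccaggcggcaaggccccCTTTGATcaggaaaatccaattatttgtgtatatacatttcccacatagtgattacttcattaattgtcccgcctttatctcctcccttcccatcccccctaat
Tnfrsf19, first start: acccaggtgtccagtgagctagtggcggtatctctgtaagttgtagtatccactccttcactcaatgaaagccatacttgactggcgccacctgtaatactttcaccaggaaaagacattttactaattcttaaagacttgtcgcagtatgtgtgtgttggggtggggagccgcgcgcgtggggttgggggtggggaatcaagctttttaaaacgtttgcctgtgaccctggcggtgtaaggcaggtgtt
Tnfrsf19, second start: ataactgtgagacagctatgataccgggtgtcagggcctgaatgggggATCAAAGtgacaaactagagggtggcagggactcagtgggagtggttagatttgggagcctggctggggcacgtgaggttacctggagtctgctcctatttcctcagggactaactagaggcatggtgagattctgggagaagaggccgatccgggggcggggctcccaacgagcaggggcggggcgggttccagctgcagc
Lef1, last start: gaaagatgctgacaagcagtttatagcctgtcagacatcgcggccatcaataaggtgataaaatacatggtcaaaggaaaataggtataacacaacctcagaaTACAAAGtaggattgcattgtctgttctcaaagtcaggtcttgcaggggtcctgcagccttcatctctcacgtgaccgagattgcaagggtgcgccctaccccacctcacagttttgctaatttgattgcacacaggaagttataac

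Of the other transcription factors, Prox1 had a pattern like that of Lef1. Its early levels ran from 11.72 (mouse 1805) over a median of 12.09 to 12.32 (mouse 3413), and its late levels from 9.79 (mouse 1805) over a median of 12.04 to 12.42 (mouse 3407). The difference was -1.93 log2 in mouse 1805, -0.42 in mouse 1755, and between -0.13 and 0.12 in the other 4 mice. The fitted difference was -0.41 (SE 0.257, adjusted p = 0.497), and -0.11 without mouse 1805. Sox9 was higher late in 5 of 6 mice, with mouse 1805 as the exception. Of all genes 1.97% share this arrangement, and 2.59% were higher in 6 of 6. The arrangement is that of Sox9 itself, so its share does not show that it is unusual. The Sox9 differences were 0.01, 0.09 and -0.33 log2 in mice 1755, 1803 and 1805, and 0.06, 0.42 and 0.10 in mice 2201, 3407 and 3413. The fitted difference was 0.06 (SE 0.0899, adjusted p = 0.806), and 0.14 without mouse 1805.

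The growth drivers showed no common direction. Myc was lower late in 4 of 6 mice, with early levels from 11.20 (mouse 1805) over a median of 11.66 to 12.18 (mouse 1755) and late levels from 10.49 (mouse 1805) over a median of 11.68 to 11.98 (mouse 3407). Its differences ran from -0.71 log2 in mouse 1805 and -0.41 in mouse 1755 to 0.43 in mouse 1803, with a fitted value of -0.13 (SE 0.143, adjusted p = 0.707), and -0.016 without mouse 1805. The tumors of 1 pathology thus differed in direction, with mice 1755 and 1803, both adenoma, on opposite sides. Ccnd1 ran from 11.97 (mouse 1805) over a median of 12.35 to 12.52 (mouse 2201) early, and from 11.87 (mouse 1805) over a median of 12.40 to 12.79 (mouse 1803) late. It was 0.49 log2 higher late in mouse 1803 and lay between -0.13 and 0.05 in the other mice, with a fitted difference of 0.04 (SE 0.0874, adjusted p = 0.886), and 0.063 without mouse 1805. The 95% intervals of the fitted late minus early differences were -0.46 to 0.20 log2 for Myc and -0.17 to 0.24 for Ccnd1.

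**Figure D2:**
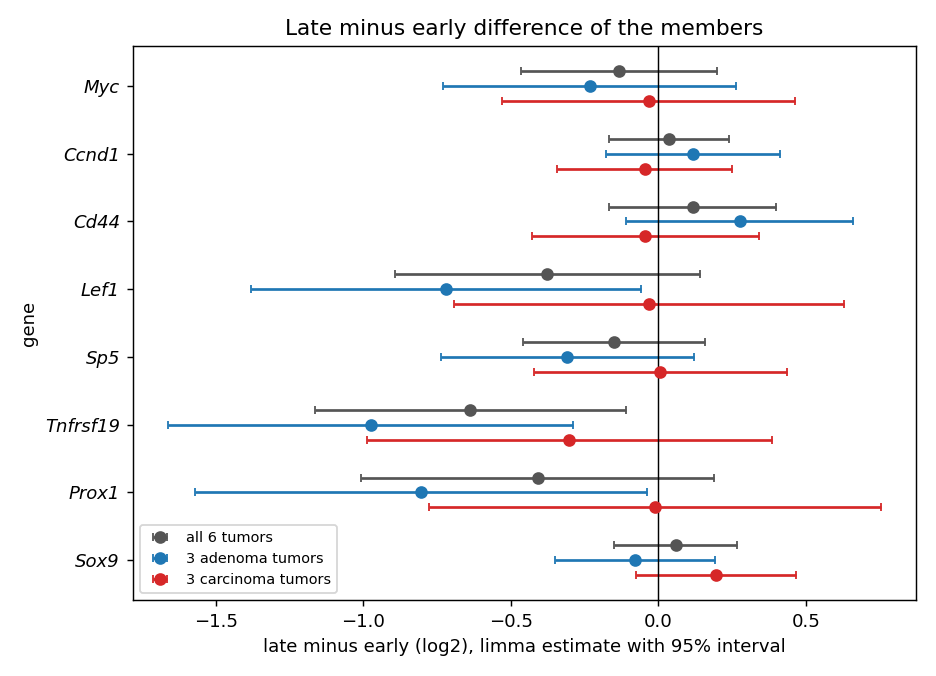
Fitted late minus early difference of each gene (log2, horizontal axis) with its 95% interval from limma, over all 6 tumors (gray), the 3 adenoma tumors (blue) and the 3 carcinoma tumors (red). The intervals of Tnfrsf19 over all tumors and of Tnfrsf19, Lef1 and Prox1 in adenoma lie below 0 before adjustment for the number of genes tested, and the carcinoma estimates lie near 0 apart from those of Tnfrsf19 (-0.30) and Sox9 (0.20).

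The next comparison took the 3 tumors that ended as adenoma. In these tumors 6 of 8 genes were lower late and 2 higher, where 47.2% of all genes were higher, with a median of -0.27 log2 against -0.01 over all genes. None of the 8 passed the threshold, which 25 genes, 0.125% of all, did. At an unadjusted p under 0.05 there were 3 of the 8, Tnfrsf19, Lef1 and Prox1, each lower in 3 of 3 mice, where 18% of all genes reached that level. Tnfrsf19 was at 10.47 ± 0.412 early and 9.49 ± 1.26 late (SD, n = 3 each), a difference of -0.97 log2 (SE 0.287, adjusted p = 0.167). Lef1 differed by -0.72 (SE 0.277, adjusted p = 0.245) and Prox1 by -0.81 (SE 0.321, adjusted p = 0.257). Sp5 differed by -0.31, Myc by -0.23, Sox9 by -0.08, Ccnd1 by 0.12 and Cd44 by 0.28. Without mouse 1805 Tnfrsf19, Lef1 and Prox1 were at -0.47, -0.23 and -0.24. Sp5, Myc and Sox9 were then at -0.016, 0.0080 and 0.046, and Ccnd1 and Cd44 at 0.23 and 0.01. In that fit 1 of the 8 reached an unadjusted p under 0.05, while the 18% of all genes belongs to the fit with mouse 1805. The median of the set was then -0.0040, so the size of the set's difference in adenoma rests on that tumor. Early and late levels overlapped in 8 of 8 genes, while 15.3% of all genes had groups that did not. All 3 adenoma pairs join arrays of the lower and the higher range of the submitters' sample numbers, so number range and time cannot be told apart there. Fibroblast markers were higher late in these tumors (7 of 7, median 0.98 log2), as were endothelial ones (6 of 6, median 1.46), and the medians were 1.77 and 1.75 without mouse 1805. Epithelial markers were higher in 6 of 7 (median 0.04), and lower in 7 of 7 (median -0.051) without that mouse. The part of these markers in the lower values was not tested.

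In the 3 carcinoma tumors the estimates of most of the set lay near 0. None of the 8 genes passed, 0% of all genes did, and at an unadjusted p under 0.05 there were 0 of the 8, against 4.3% of all genes. The median was -0.03 log2, as over all genes, and 2 of 8 were above 0, against 39.8% of all genes. Tnfrsf19, from 10.65 ± 0.239 early to 10.35 ± 0.224 late (SD, n = 3 each), was lower in 3 of 3 mice with a difference of -0.30 (SE 0.287, adjusted p = 0.952). Sox9, from 11.83 ± 0.201 to 12.02 ± 0.155 (SD, n = 3 each), was higher in 3 of 3 with a difference of 0.20 (SE 0.113, adjusted p = 0.952). Myc, Ccnd1, Cd44, Lef1, Sp5 and Prox1 lay between -0.05 and 0.01, and the interval of Myc, for example, was -0.53 to 0.46 log2, wide enough to hold its adenoma value. Early and late levels overlapped in 8 of 8 genes, while they did not in 7.95% of all genes.

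Whether the change over time itself differed by pathology was tested in the same fit. The carcinoma minus adenoma difference of the changes was 0.79 log2 for Prox1 (SE 0.454, adjusted p = 0.750), 0.69 for Lef1 (SE 0.392, adjusted p = 0.750), 0.67 for Tnfrsf19 (SE 0.406, adjusted p = 0.753) and -0.32 for Cd44 (SE 0.228, adjusted p = 0.784). It was 0.32 for Sp5, 0.27 for Sox9, 0.20 for Myc and -0.16 for Ccnd1. Without mouse 1805 it was 0.23 for Prox1, 0.20 for Lef1, 0.17 for Tnfrsf19, -0.054 for Cd44, 0.023 for Sp5, 0.15 for Sox9, -0.040 for Myc and -0.27 for Ccnd1. None of the 8 passed, as for 0% of all genes, and none reached an unadjusted p under 0.05, against 7.04% of all genes. The changes of the adenoma and carcinoma tumors did not overlap for Lef1 and Tnfrsf19, an arrangement found in 13.1% of all genes. Of the 8, 6 had a difference above 0, against 47.1% of all genes, and the median of 0.29 log2 was 0.086 without mouse 1805. A difference between the pathologies in how the set changed was therefore not detectable with these mice.

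Comparing the pathologies at the late biopsy, whose arrays all lie in the higher range of sample numbers, the mean of all 8 genes was higher in carcinoma than in adenoma, where 54.2% of all genes were, although Ccnd1 and Cd44 turned below 0 with arrays centred on their medians (-0.040 and -0.023). The median was 0.33 log2 against 0.02 over all genes. None passed the threshold, 0% of all genes did, and at an unadjusted p under 0.05 there was 1, Prox1, against 11.7% of all genes. Prox1 was at 11.38, 12.21 and 9.79 log2 in adenoma mice 1755, 1803 and 1805 and at 11.88, 12.42 and 12.19 in carcinoma mice 2201, 3407 and 3413, a 2.05-fold difference of the means (1.04 log2, SE 0.462, adjusted p = 0.424). The groups overlapped, since mouse 1803 was above mice 2201 and 3413, as the groups did in 8 of 8 genes, and they did not overlap in 14.9% of all genes. Tnfrsf19 differed by 0.86 (SE 0.467, adjusted p = 0.486) and Lef1 by 0.83 (SE 0.392, adjusted p = 0.442). Sp5 differed by 0.37, Sox9 by 0.29, Myc by 0.26, Cd44 by 0.03 and Ccnd1 by 0.01. Without the late and early arrays of mouse 1805 the median was 0.13, Prox1 was at 0.37, Lef1 at 0.41, Tnfrsf19 at 0.14, Sp5 at 0.12, Sox9 at 0.13 and Cd44 at 0.16, and Myc and Ccnd1 turned to -0.20 and -0.23. The 5 proliferation markers were also higher in late carcinoma (5 of 5, median 0.48 log2), and the epithelial (7 of 7, median -0.22) and colonocyte markers (5 of 5, median -1.32) were lower. Without mouse 1805 the proliferation and epithelial medians were 0.19 and -0.14. The part of these markers in the differences of the 8 genes was not tested.

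At the early biopsy, before the final pathology was read, the same split again gave 8 of 8 genes above 0, where 60.1% of all genes were, with a median of 0.16 log2 (0.069 without mouse 1805) against 0.04. With arrays centred on their medians 3 of the 8, Myc, Sp5 and Sox9, turned below 0 (-0.014, -0.0088 and -0.052), and with a term for the number range Lef1 did (-0.084). None passed, as for 0% of all genes, and none reached an unadjusted p under 0.05, against 12% of all genes. Cd44 had the largest difference and was the only gene of the set whose groups did not overlap, as in 18.1% of all genes. It was at 12.41, 12.45 and 12.02 in the early biopsies of mice 1755, 1803 and 1805, and at 12.80, 12.65 and 12.47 in those of mice 2201, 3407 and 3413. The difference was 0.35 log2 (SE 0.166, adjusted p = 0.445), and 0.21 without mouse 1805. Prox1 differed by 0.24, Tnfrsf19 by 0.19, Ccnd1 by 0.17, Lef1 by 0.15, Sp5 by 0.06, Myc by 0.05 and Sox9 by 0.02. Without mouse 1805 Prox1 was at 0.14, Ccnd1 at 0.044, Lef1 at 0.21 and Sp5 at 0.094, and Tnfrsf19, Myc and Sox9 turned to -0.026, -0.16 and -0.023. Early adenoma-fated and carcinoma-fated biopsies also differed in the mean of 5 colonocyte markers, at 10.64 to 12.07 log2 in the former and 8.19 to 8.57 in the latter, and in that of 8 leukocyte and myeloid markers, at 8.24 to 9.07 against 9.49 to 9.53. Of the markers, 5 of 5 colonocyte genes were lower and 8 of 8 leukocyte genes higher in the carcinoma-fated biopsies. So were 7 of 7 fibroblast (median 0.87 log2), 6 of 6 endothelial (median 0.97) and 5 of 5 proliferation markers (median 0.40, and 0.25 without mouse 1805). The part of all these markers in the Cd44 difference was not tested. The early biopsies of mice 1755, 1803, 1805 and 2201 carry the lower sample numbers, and within them only mouse 2201 became carcinoma, so within that range the comparison has a single carcinoma value, 12.80.

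The late biopsy of mouse 1805 carried most of what the set showed. Relative to its early biopsy, Tnfrsf19 was 3.96-fold lower, Prox1 3.81-fold, Lef1 3.24-fold and Sp5 1.86-fold, and Myc was 1.64-fold lower. Of the 8 genes, 3 were lower by more than 1 log2 in this pair, against 2.34% of all genes, 5 by more than 0.5 log2, against 8.74%, and 0 were higher by more than 1 log2, against 2.43%. The change of largest size was that of mouse 1805 in 6 of the 8 genes, against 29.1% of all genes. Of the 8 genes, 0 were lower by more than 1 log2 in the other 5 mice, while 2.71% of all genes were in at least 1 of them. The late array of mouse 1805 was the lowest of the 12 arrays for 7 of the 8 genes, against 22.7% of all genes, with Cd44, where it was the highest, as the exception. The 8 genes had a median change of -0.80 log2 there, and -0.10, 0.03, -0.09, 0.09 and -0.06 in mice 1755, 1803, 2201, 3407 and 3413.

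**Figure D3:**
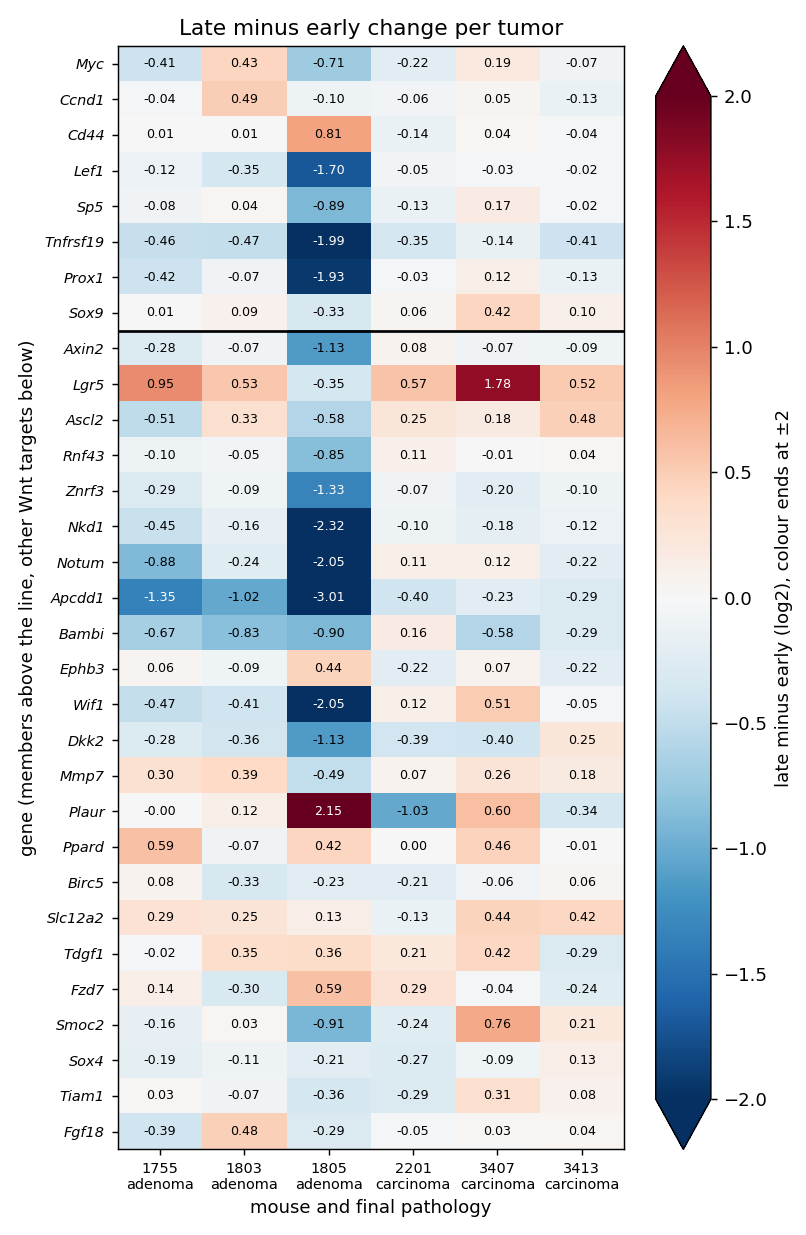
Late minus early change (log2, number and color in each cell; color ends at 2 either way) per tumor for the 8 genes above the line and 23 other Wnt targets below it. The column of mouse 1805 holds the deepest blue cells, with Tnfrsf19 at -1.99 and Apcdd1 at -3.01, while Cd44 (0.81) and Plaur (2.15) are red there; Lgr5 is red in the other 5 columns.

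Other Wnt targets in that biopsy were divided in the same way. The list of other Wnt targets had 25 genes, 23 of them measured, and 17 of the 23 were lower late in mouse 1805, with 7 lower by more than 1 log2 and a median change of -0.49. The lowest were Apcdd1, an inhibitor at the cell membrane, at -3.01, Nkd1, an inhibitor inside the cell, at -2.32, the secreted inhibitor Wif1 at -2.05 and Notum, which removes the lipid from Wnt ligands, at -2.05. Axin2, a part of the destruction complex and the usual readout of the pathway, was at -1.13. The urokinase receptor gene Plaur was at 2.15, on the side of Cd44. Nkd1, Notum and Plaur are named here for their values in this mouse. The mean change of 22 core pathway genes was -0.03 in this mouse, and Ctnnb1, which encodes beta-catenin, and Apc, both also named after their values were seen, differed by 0.01 and 0.03. The epithelial markers were higher late in 7 of 7 genes there (list mean 0.44), with Epcam at 0.16. The 5 proliferation markers were lower (mean -0.39, 5 of 5), the 6 T cell markers too (mean -0.79, 6 of 6), while the 8 leukocyte and myeloid markers were divided. Of these 4 were higher, the neutrophil genes S100a8 (3.29), S100a9 (2.80) and Cxcr2 (2.74) and the integrin gene Itgam (1.47), and 4 were lower, Csf1r (-0.61), Ptprc (-0.54), Adgre1 (-0.32) and Cd68 (-0.0055). The part of these cell types in the low values was not tested. T cells express Lef1, and the part of T cells in its value was not tested. The mean T cell change in the other mice was 0.06 to 1.03, and the Lef1 change was -0.35 to -0.02. In mouse 1803 3 of 6 T cell markers were lower (median -0.033), and in mouse 3407 2 of 6 were. Prox1, at -1.93 in mouse 1805, is also a gene of lymphatic endothelium, whose 5 markers were higher late there (mean 0.71). Enteroendocrine cells express Prox1 as well. Of their markers 4 of 6 were lower late in this mouse (mean -0.12), and 5 of 6 were higher over all tumors. The part of these cells in the Prox1 value was not tested.

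Over all 6 tumors 9 of the 23 other Wnt targets were higher (42.1% of all genes) and 14 lower late, with 0 past the threshold, 5 at an unadjusted p under 0.05 (14.7% of all genes) and a median of -0.05 log2. Lgr5, the stem cell receptor, was higher in 5 of 6 mice, by 0.52 to 1.78 log2, and at -0.35 in mouse 1805 (fitted 0.67, SE 0.233, adjusted p = 0.279). Apcdd1 (-1.05, SE 0.354, adjusted p = 0.274, and -0.66 without mouse 1805) and Bambi (-0.52, SE 0.138, adjusted p = 0.246) were among the lower ones. In adenoma 8 of 23 were higher (47.2% of all genes) and 15 lower, 8 of them at an unadjusted p under 0.05 (18% of all genes), with a median of -0.17. Without mouse 1805 the median was -0.084, and 6 of the 23 reached that level. In carcinoma 13 of 23 were higher (39.8% of all genes), with 1 at that level (4.3%). At the late biopsy 19 of 23 were higher in carcinoma than in adenoma (54.2% of all genes), with a median of 0.51 log2 and 5 at an unadjusted p under 0.05 (11.7% of all genes), led by Lgr5 at 1.46 (SE 0.501, adjusted p = 0.401) and Wif1 at 1.24 (SE 0.433, adjusted p = 0.401). Without mouse 1805 there were 17 of 23, the median was 0.19, 1 gene reached that level, and Lgr5 and Wif1 were at 0.88 and 0.57. The shares of all genes given for these lists are from fits with all 6 mice, also beside counts without mouse 1805. Without mouse 1803 the median was 0.83. Of the 22 core genes 8 were higher and 14 lower late over all tumors, with a median of -0.03, near that of all genes. Limma called 0 genes of either list in any of these comparisons.

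The genes around Myc, Ccnd1 and Cd44 were compared in the same way. A list of 21 Myc targets, mostly of ribosome and nucleotide production, also held Tert, Ldha and Cdk4. Of the 21, 2 were higher (42.1% of all genes) and 19 lower late over all tumors (median -0.14 log2, 0 past the threshold). At an unadjusted p under 0.05 there were 2 (14.7% of all genes). The mice differed, with 20, 19 and 20 of the 21 lower in mice 1755, 1805 and 2201 and 17, 15 and 16 higher in mice 1803, 3407 and 3413. Without mouse 1805, 16 were lower, the median was -0.059 and 0 reached that level, while the shares of all genes are from fits with all 6 mice. Lowest in p was Nme1, a nucleotide kinase, at -0.25 (SE 0.0840, adjusted p = 0.274). At the late biopsy 19 of 21 were higher in carcinoma (54.2% of all genes, median 0.33), and 15 without mouse 1805 (median 0.045). The median was 0.51 without mouse 1803 and 0.19 without mouse 3407. Among these genes was Tert, the catalytic part of telomerase, at 0.82 (SE 0.200, adjusted p = 0.401). Myc itself differed by -0.13 and 0.26 in these comparisons. Of 13 Myc partners 6 were higher (42.1% of all genes) and 7 lower late over all tumors. Mxd1, a repressor that competes with Myc for Max, was lower in carcinoma than in adenoma at both biopsies. It was at -1.24 early (SE 0.345, adjusted p = 0.281) and -1.16 late (SE 0.345, adjusted p = 0.401), the latter -0.64 without mouse 1805. Around Ccnd1, 18 of 19 D cyclin and G1 genes were measured, 6 of them higher (42.1% of all genes) and 12 lower late over all tumors, and 5 at an unadjusted p under 0.05 (14.7% of all genes). These included the E cyclins Ccne1 (-0.54, SE 0.121, adjusted p = 0.219) and Ccne2 (-0.59, SE 0.151, adjusted p = 0.236) and the inhibitor Cdkn1c (-0.46, SE 0.0892, adjusted p = 0.206), each lower in 6 of 6 mice. Around Cd44, 12 of 15 measured hyaluronan and partner genes were higher late in adenoma (47.2% of all genes). In carcinoma 7 of 15 were (39.8% of all genes), with 0 past the threshold in either. At an unadjusted p under 0.05 there were 5 of the 15 in adenoma (18% of all genes) and 0 in carcinoma (4.3%). In adenoma the leading genes were Msn, encoding moesin, which ties Cd44 to actin, at 1.00 (SE 0.201, adjusted p = 0.101) and the hyaluronan synthase Has2 at 0.94 (SE 0.298, adjusted p = 0.190), which was at 0.46 without mouse 1805. The fibroblast and endothelial markers were higher late in the same tumors, and their part in these list values was not tested either.

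**Figure D4:**
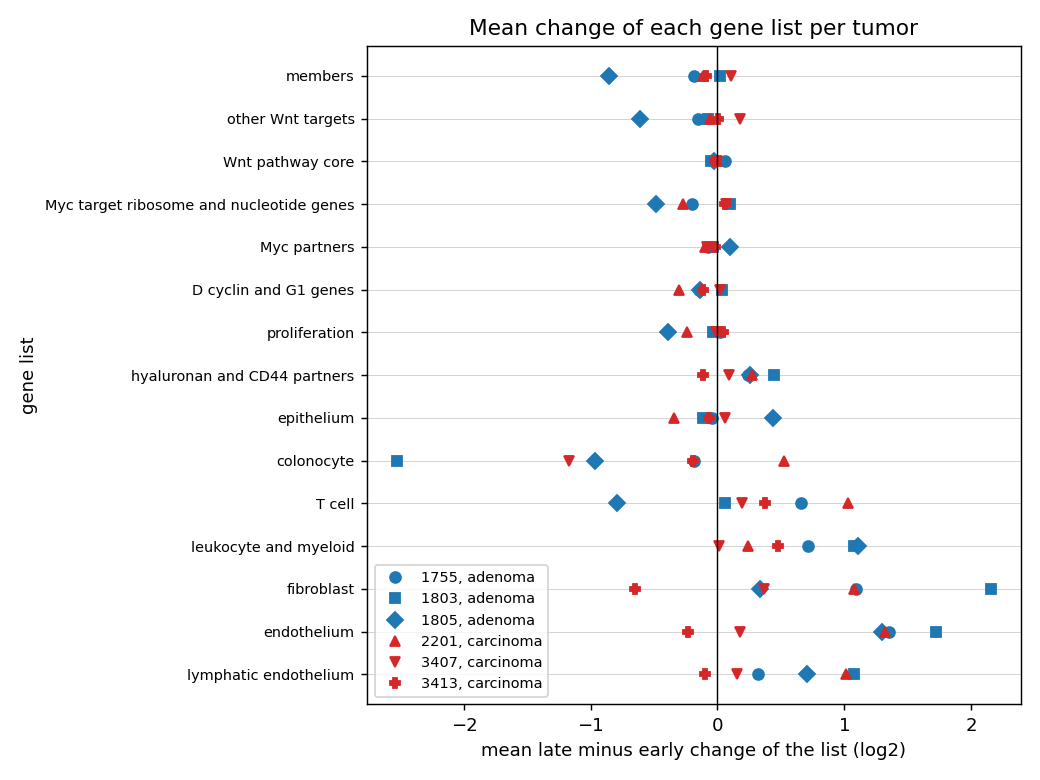
Mean late minus early change (log2, horizontal axis) of each gene list, 1 point per mouse, blue for tumors that ended as adenoma and red for carcinoma. In mouse 1805 the 8 genes (-0.85) and the other Wnt targets (-0.61) are the lowest of the 6 mice while the core pathway genes stay at -0.03 and the epithelial markers are the highest (0.44).

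Across the 12 arrays the 8 genes were alike to different degrees, described here without a test because arrays of a mouse are not independent. Lef1 and Prox1 correlated at r = 0.930, and at 0.861 without the late array of mouse 1805. Lef1 and Sp5 were at 0.863 and 0.692, Sp5 and Prox1 at 0.863 and 0.698, and Myc and Ccnd1 at 0.837 and 0.730. Tnfrsf19 and Prox1, at 0.810, were at -0.14 without that array, so their likeness rests on it. Over all 28 pairs the median r was 0.603, and 0.240 without it. Cd44 correlated with the other 7 at -0.34 to 0.17, and at -0.011 to 0.605 without that array, so its low correlations rest on it too.

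Among the genes of the whole table, the nearest to Prox1 were Znrf3, a ligase that removes Wnt receptors (r = 0.987, and 0.947 without the late array of mouse 1805), and Axin2 (0.986, and 0.929). Lef1 was nearest to Spock2 (0.981, and 0.963) and to Ldb1, a nuclear adaptor protein (0.968, and 0.929). Sp5 was nearest to Farsa (0.960, and 0.920), Tnfrsf19 to Parp2 (0.979, and 0.903) and Sox9 to Cdca7 (0.918, and 0.864). Myc was nearest to Nifk, a nucleolar protein gene (0.959, and 0.905), Ccnd1 to the nucleoside transporter Slc29a1 (0.903, and 0.944) and Cd44 to Cela3b (0.941, and 0.930). These are Pearson correlations of log2 values among 13997 genes that were not dim and not of the excluded kinds.

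**Figure D5:**
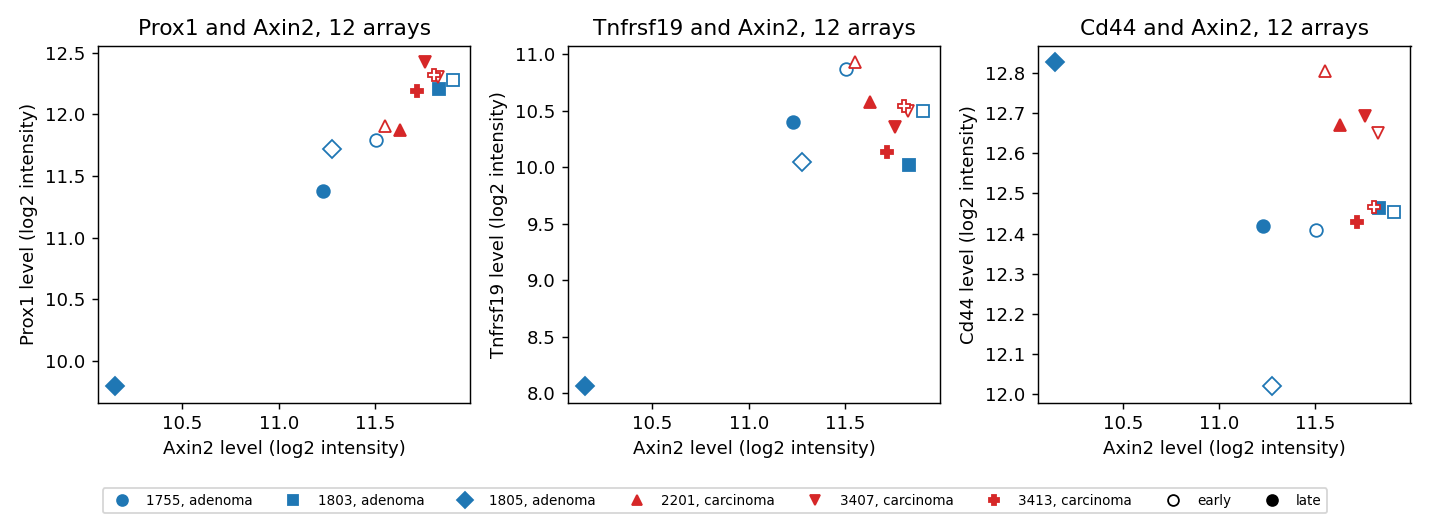
Level of Prox1, Tnfrsf19 and Cd44 (log2 intensity, vertical axes) against Axin2 (log2 intensity, horizontal axis) on the 12 arrays, open symbols early and filled symbols late, 1 symbol shape per mouse. Prox1 lies along a line with Axin2 (r = 0.986), Tnfrsf19 is separated from the rest only in the late array of mouse 1805, and Cd44 is highest in that array, where Axin2 is lowest.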

How the data were processed

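Total RNA of 12 tumor biopsies was labelled with the Ambion GeneChip WT Expression kit and hybridised to Affymetrix mouse arrays, per the labels' protocols. The authors deposited 1 value per probe set and array, used here as log2 intensities because of their range (2.56 to 14.8) and medians. The summarisation and normalization behind these log2 values as deposited are not stated in the labels, and no further step was applied. The table has 35557 probe sets, of which 21789 map to 1 gene symbol, 1621 to several and 12147 to none. For 999 genes with more than 1 such probe set the brightest on average was used, giving 19938 genes.

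Tests used R 4.3.3 and limma 3.58.1 (lmFit, eBayes, 2-sided, Benjamini-Hochberg adjustment over all genes of a comparison, threshold 0.05). Late against early had mouse as a fixed block (5 residual degrees of freedom over all tumors, 4 by pathology); the pathologies were compared at each time in a fit of 4 groups with mouse as a random block (consensus correlation 0.286, 8 residual degrees of freedom). SE is that of the moderated test and ± the SD over mice. The pairing comes from the animal; deviations of the arrays of a mouse from the mean of their time point correlated at 0.110 to 0.527, over 0.1 in 6 of 6 mice. Simulated data with known changes were run through the late minus early fits and the late comparison of the pathologies, with a check on the median error of the estimates. The difference of the changes and the early comparison were not simulated. The simulated noise was independent between arrays and held no outlying tumor.

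The 8 genes, the other gene lists and the tests were chosen with earlier results of these data known. All 8 genes are named in every comparison. From each other list up to 4 genes with the smallest unadjusted p of a comparison may be named, besides Axin2, Lgr5 and Mki67, and the nearest genes are those with the highest Pearson r over the 12 arrays, leaving out genes below the 25th percentile, predicted genes, small RNAs and receptor families. Unmeasured list genes were left out. Alternatives were the fit without the block, each mouse left out, a term for the sample number range, age as a term (over all tumors only), a filter on dim genes, the mean of a gene's probe sets, quantile normalization, centring on array medians, and a trended robust prior; the other lists without each mouse were added after seeing the data.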

Additional observations from a re-analysis of the deposited data

Results flagged for a closer look

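The levels at each time and the change over time of the 8 genes, 24 groups of 6 mice in all, were searched for a mouse that stands apart from the other 5, by the ratio of its gap to the whole range against Dixon's limit for 6 values. Such a mouse was found in 7 of the 24 groups. Chance alone gives about 1 in 20 groups such a mouse, and the 24 groups are not independent, since they come from the same 12 arrays.

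Mouse 1805 accounted for 6 of the 7. Its late minus early change stood apart for Tnfrsf19 (-1.99 log2, against -0.47 to -0.14 in the others), Prox1 (-1.93, against -0.42 to 0.12), Lef1 (-1.70, against -0.35 to -0.02), Sp5 (-0.89, against -0.13 to 0.17) and, upward, Cd44 (0.81, against -0.14 to 0.04). Its late level of Tnfrsf19 was 8.06 log2, against 10.02 to 10.58 in the others. The remaining find was the change of Ccnd1 in mouse 1803, 0.49 log2 against -0.13 to 0.05.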

How the results depend on the processing

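None of the 8 genes passed the threshold in any of the 6 comparisons under 13 alternatives, or over all tumors with age as a term, and the smallest adjusted p of a gene of the set was 0.0711 (Prox1, late biopsies, without mouse 1803, where limma called 395 genes). Of 632 recomputed values of single genes, 586 kept their sign and 46 changed it, all of them from a value of at most 0.26 log2 in size. Among the 586 are values that could not change sign. The filter on dim genes, the trended robust prior and the fit without the block leave the log2 estimates of the 8 genes as they are. So does the mean of probe sets, since each of the 8 has 1 probe set. Without the replicate block (mouse) only SE and p could move. Tnfrsf19 over all tumors stayed at -0.64 log2 with SE 0.347 (adjusted p = 0.551), and genes called in adenoma numbered 2 in place of 25. That count was 0 without mouse 1755, 1803 or 1805 or with the number range as a term, 78 without 2201, 2 without 3407, 3 without 3413, 13 with the filter on dim genes and 42 with centred arrays. The cause of these shifts was not tested.

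With 1 mouse left out in turn, the median of the set ran from -0.22 to -0.02 log2 over all tumors, -0.52 to -0.0040 in adenoma, -0.083 to -0.0012 in carcinoma, 0.086 to 0.51 for the difference of the changes, 0.13 to 0.59 late and 0.069 to 0.22 early. Ranges that cross 0 were, over all tumors, Ccnd1 -0.055 to 0.069, Cd44 -0.022 to 0.17 and Sox9 -0.015 to 0.14. In adenoma they were Myc -0.56 to 0.0080, Ccnd1 -0.069 to 0.23 and Sox9 -0.16 to 0.046, and in carcinoma Myc -0.14 to 0.060, Cd44 -0.087 to 0.0024, Sp5 -0.074 to 0.074 and Prox1 -0.078 to 0.048. For the difference of the changes they were Myc -0.040 to 0.53 and Ccnd1 -0.27 to 0.023. Late they were Myc -0.20 to 0.53, Ccnd1 -0.23 to 0.23 and Cd44 -0.048 to 0.16, and early Myc -0.16 to 0.32, Lef1 -0.15 to 0.38, Sp5 -0.072 to 0.16, Tnfrsf19 -0.026 to 0.39 and Sox9 -0.099 to 0.087.

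With the sample number range as a term, the sign changed over all tumors for Myc (0.060), Ccnd1 (-0.039) and Sp5 (0.074), in adenoma for Myc (0.042) and Sox9 (0.13), in carcinoma for Myc (0.060) and Cd44 (0.0024), and early for Lef1 (-0.084). The values over all tumors for Myc, Ccnd1 and Sp5 equal the mean changes of the 2 pairs within a range, both carcinoma. They therefore describe no adenoma tumor. In the late minus early fit by pathology the term rests on the carcinoma pairs. Under it the adenoma values of Tnfrsf19, Lef1 and Prox1 were -0.90, -0.70 and -0.78. Centring the arrays changed the sign of Ccnd1 over all tumors (-0.0013), Sp5 in carcinoma (-0.022), Ccnd1 (-0.040) and Cd44 (-0.023) late, and Myc (-0.014), Sp5 (-0.0088) and Sox9 (-0.052) early. Quantile normalization changed Sp5 (-0.025) and Prox1 (0.0032) in carcinoma, and age as a term changed Sox9 (-0.0012 per 100 days). Per 100 days of age Tnfrsf19 differed by -0.37 log2 (SE 0.0834, adjusted p = 0.0890). Mouse 1805 was the oldest at its late biopsy (395 days) and had the largest fall of Tnfrsf19 (-1.99 log2). The age fit was not repeated without this mouse, so its weight in that value is not known. Values that moved by more than 1.5 times without mouse 1805 are given beside the results. The number of mice, 3 per pathology, limits what could pass the adjustment over all genes.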
